A study of Mus musculus with 12 samples.

Results

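The circadian clock genes Per1, Per2, Per3, Arntl, Clock, Cry1, Cry2, Nr1d1 and Dbp were followed in the hypothalamus of male ICR mice, an outbred strain, that had drunk either water alone or water and alcohol from adolescence to adulthood. The members were these 9 genes, found by their symbol in the array files, and they were represented by 17 of the 41174 non-control probes. All groups began at 3 weeks of age with water in both drinking tubes up to day 5. The water pools then kept water in both tubes, and the alcohol pools had 5% or 10% alcohol in one of them with free choice. By the labels, the alcohol pools are low drinkers, early high drinkers and late high drinkers, and each of the 4 groups had 3 arrays, each with the RNA of a pool of mice, by the methods 3 mice in each water and low drinker pool and 1 or 2 in each high drinker pool. Mice were kept singly in equal phases of light and dark. The sample labels give sacrifice on day 51 and the series design gives drinking up to day 57. The time of day at which the tissue was taken is not given in the sources used here.

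The mammalian clock is a loop of transcription that runs in nearly every cell over about a day. The proteins of Clock and Arntl (also called Bmal1) bind together to E-boxes in the genome and switch on the Per and Cry genes, whose proteins return to the nucleus and repress the pair. In a second loop Clock and Arntl drive Nr1d1 (Rev-erb alpha), a nuclear receptor that represses Arntl, and Dbp is an output gene whose protein binds D-boxes of other genes. The suprachiasmatic nucleus of the hypothalamus holds the master clock, while the rest of the hypothalamus holds slave clocks that answer also to feeding and glucocorticoids. In rhythmic tissue the RNAs of Dbp, Nr1d1 and the Per genes rise and fall in the opposite phase to Arntl, so that the relation between the members depends on the hour of collection.

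Levels are given as the log2 intensity after subtraction of the array's own 75th percentile, so that a value of 0 is the brightness of that percentile and a difference of 1 is a doubling. The 75th percentile lay between 1512 and 1853 intensity units, and between 67.0% and 79.3% of the spots of an array were well above background. The arrays were printed 4 to a slide. All 3 water pools shared slide 1 with low drinker pool 1, and this slide was scanned 6 days after the others. The other low drinkers shared slide 2 with early high drinker pools 1 and 2, and the late high drinkers shared slide 3 with early high drinker pool 3. Slide and group are therefore largely confounded, and only low drinker pool 1 can be set against water on the same slide. The highest lower-quartile intensity, 63.2, was that of low drinker pool 2, where dim probes read high. Well above background on all 12 arrays were 9 of 9 tested hypothalamic neuropeptide genes, among them Avp, Oxt, Hcrt and Pmch, and 7 of 7 tested genes of the suprachiasmatic nucleus. So were 6 of 6 thalamus, 4 of 4 white matter, 4 of 6 cortex and striatum, 4 of 5 choroid plexus and 3 of 5 anterior pituitary markers. Detection therefore goes with the tissue label but does not set the hypothalamus apart from neighboring tissue. The number of arrays, 3 in a group, limits the precision of every value.

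Each member was read on its brightest probe, and all 9 of these probes were well above background on all 12 arrays. Over the 12 arrays the SD lay between 0.08 for Arntl and 0.23 for Nr1d1 on the log2 scale, beside a median of 0.13 over the 26040 probes that were well above background and measured on every array. Arntl, the obligate partner of Clock, was at the 17.1th percentile of these SDs and Clock at the 24.5th. Nr1d1 was at the 79.0th, Per2 at the 72.8th, Per1 at the 71.9th and Dbp at the 63.5th. The activators thus varied little between pools and Nr1d1 varied most, and the largest range of any member, for Nr1d1, was 0.79.

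**Figure D1:**
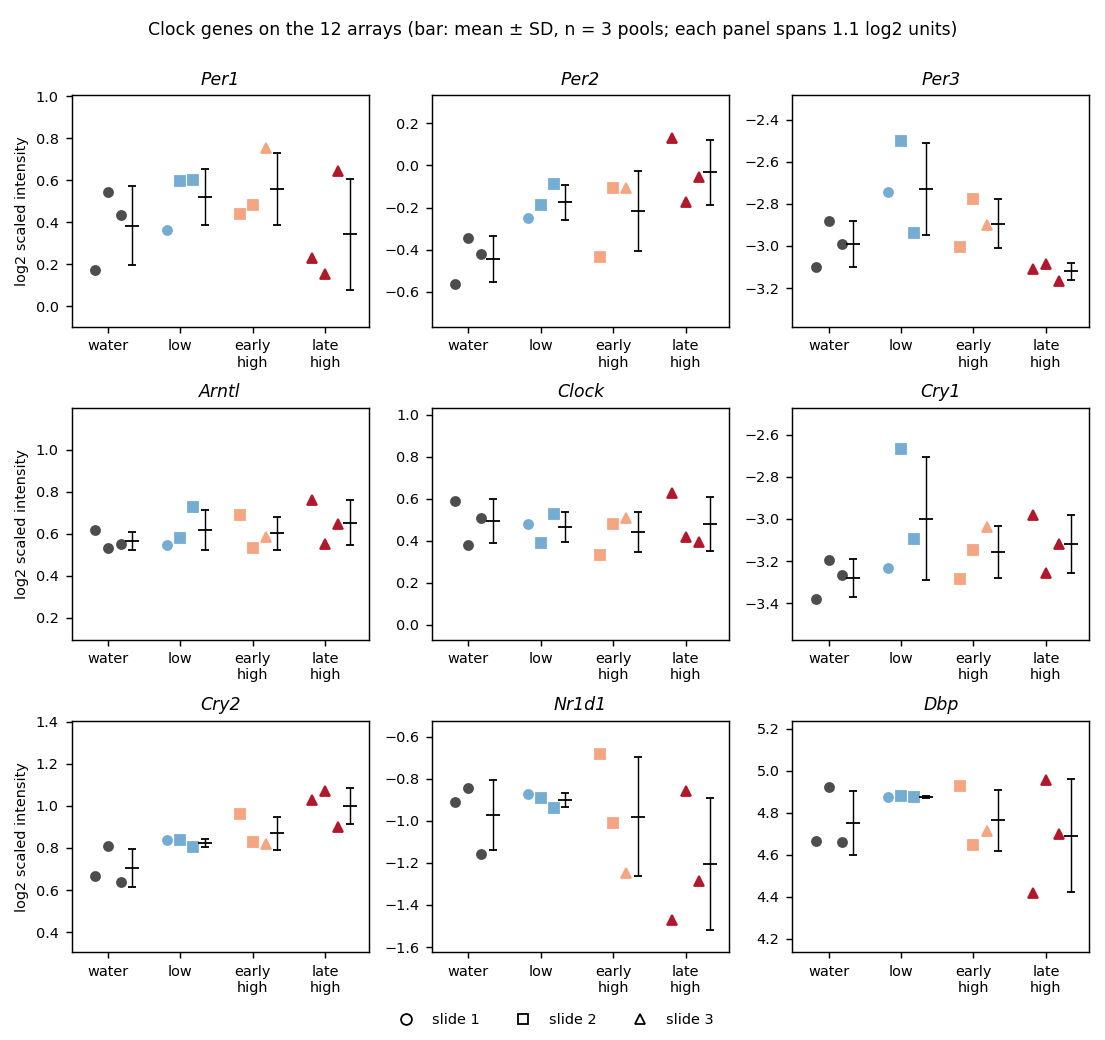
Level of each clock gene (brightest probe, log2 intensity minus the 75th percentile of the array) on the 12 arrays, by group, with the mean and SD of the 3 pools in black and the slide as the shape of the point. Per2 and Cry2 lie higher in the alcohol pools than in water with 1 overlapping array each, and Nr1d1 and Dbp spread widely among the late high drinkers.

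Of the 9 members, 2 passed an unadjusted p of 0.05 in the comparison of the 9 alcohol arrays with the 3 water arrays, Per2 and Cry2, and both were higher with alcohol. In the same limma fit 5.53% of the 32376 probes tested passed that threshold. No member, and no probe of the array, passed after Benjamini-Hochberg adjustment over all probes, the smallest adjusted p being 0.819. The differences of 7 members were above 0 and those of 2 below, and their median was 0.08 beside 0.03 over all probes tested. For 0.982% of the probes all alcohol arrays exceeded all water arrays, and none of the 9 members did so. In simulated data with the real spreads, 154 of 200 probes moved by 0.3 in this comparison passed an unadjusted p of 0.05 and 26 an adjusted one.

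Per2, a repressor of the loop that also responds acutely to light and to glucocorticoids, had values of -0.56, -0.35 and -0.42 in water pools 1, 2 and 3. The low drinkers were at -0.25, -0.19 and -0.09, the early high drinkers at -0.44, -0.11 and -0.11, and the late high drinkers at 0.13, -0.17 and -0.05. In 8 of 9 alcohol arrays Per2 was above every water array, and early high drinker pool 1 lay within the range of water. The mean was -0.44 ± 0.11 (SD, n = 3) in water and -0.14 ± 0.15 (SD, n = 9) with alcohol, a difference of 0.30 with a standard error of 0.10, or 1.23-fold (95% interval 1.07 to 1.43, unadjusted p = 0.00865 in limma). An exact permutation test, which takes each of the 220 possible choices of 3 arrays as water, gave a 2-sided p of 0.0136. On slide 1 low drinker pool 1 was 0.19 above the mean of the water pools, and a fixed slide term in the fit gave the same 0.19, with an unadjusted p of 0.245, while with slide as a random block it was 0.27, with an unadjusted p of 0.0293. Without water pool 1, the lowest array, the difference was 0.24 and the unadjusted p was 0.0545. The position of this probe is 1:93313046-93313105 on the minus strand of mm9. A second, dimmer Per2 probe at 1:93336538-93336597 differed by 0.19 ± 0.30 (standard error) with an unadjusted p of 0.543, and its correlation with the first over the 12 arrays was 0.00.

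Cry2, the other member that passed and the partner of the Per proteins in repression, was at 0.67, 0.81 and 0.64 in water. It was at 0.84, 0.84 and 0.80 in the low drinkers, at 0.96, 0.83 and 0.82 in the early high drinkers and at 1.03, 1.07 and 0.90 in the late high drinkers. In 8 of 9 alcohol arrays Cry2 was above every water array, and the exception, low drinker pool 3, lay just below water pool 2. The alcohol mean was 0.90 ± 0.10 (SD, n = 9) and the water mean 0.70 ± 0.09 (SD, n = 3), a difference of 0.19 with a standard error of 0.07, or 1.15-fold (95% interval 1.03 to 1.27, unadjusted p = 0.0148 in limma, exact permutation p = 0.0182). A fixed slide term gave 0.13, with an unadjusted p of 0.276, and with slide as a random block it was 0.18, with an unadjusted p of 0.0439. It missed the threshold also without water pool 1, at 0.18 with an unadjusted p of 0.0581, and without water pool 3, at 0.16 with an unadjusted p of 0.0735. Its probe lies at 2:92244363-92244422 on the minus strand of mm9. The dim second probe of Cry2 differed by 0.14 ± 0.26 (standard error), with an unadjusted p of 0.608, and correlated with the first at -0.20.

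With median scaling in place of the 75th percentile the differences were 0.25 for Per2 and 0.14 for Cry2, with unadjusted p of 0.0746 and 0.247, and without any scaling they were 0.31 and 0.20, with unadjusted p of 0.0541 and 0.108. Whether alcohol, slide or scan moved Per2 and Cry2 cannot be told apart in these 12 arrays, since slides 2 and 3 hold no water pool. In bulk tissue, a change in the number of cells of a type and a change in RNA per cell cannot be told apart either. The summed level of 4 white matter markers, on the linear scale where the 75th percentile is 1, ranged from 137.8 to 157.3 in water, 156.0 to 163.6 in low drinkers, 165.6 to 175.6 in early high drinkers and 160.1 to 188.8 in late high drinkers (exact permutation p = 0.0227 for alcohol against water). All 4 differences were above 0 and 1 of 4 passed an unadjusted p of 0.05, beside 5.53% of all probes. The 3 blood markers summed to 120.4 to 147.7 in water, 96.4 to 148.4 in low, 104.7 to 131.8 in early high and 74.7 to 102.1 in late high drinkers (exact permutation p = 0.118 for alcohol against water). The 7 suprachiasmatic nucleus markers summed to 31.6 to 36.4 in water and 31.2 to 39.2 with alcohol, which overlapped. Among them Vip and Six6 were higher and Prok2 lower at an unadjusted p of 0.0267, 0.0323 and 0.00632, beside the same 5.53% of all probes under 0.05. The 6 cortex and striatum markers summed to 31.4 to 35.2 in water, 31.8 to 34.1 in low, 30.4 to 33.5 in early high and 30.0 to 30.9 in late high drinkers, so that the late arrays lay below all water arrays. Over the 12 arrays, which share slides and groups, this sum had r of -0.75 with Per2 and -0.43 with Cry2. With Cry2 r was 0.68 for the hypothalamic sum, 0.63 for white matter and -0.62 for blood, and with Per2 it was 0.16, 0.50 and -0.38. The part of these cell types in the Per2 and Cry2 values was not tested.

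The remaining members gave small differences with intervals on both sides of 0. Dbp averaged 4.75 ± 0.15 in water (SD, n = 3) and 4.78 ± 0.17 with alcohol (SD, n = 9) and differed 1.02-fold with a 95% interval from 0.863 to 1.20. Nr1d1 was at -0.97 ± 0.17 in water and -1.03 ± 0.25 with alcohol, a fold of 0.961 with an interval from 0.765 to 1.21. Arntl differed 1.04-fold (0.953 to 1.14) and Clock 0.978-fold (0.885 to 1.08). On these brightest probes, in a fit without slide, changes beyond 1.14-fold upward or 0.885-fold downward lay outside the intervals. The other Clock probes had intervals of 0.901 to 1.19, 0.947 to 1.26 and 0.883 to 1.09, which reach past those bounds. Per1, which like Per2 is induced by light and stress, differed 1.06-fold (0.879 to 1.29). Per3, the least essential of the Per genes for rhythm, differed 1.05-fold (0.871 to 1.27), and Cry1, the other cryptochrome repressor, 1.14-fold (0.963 to 1.35).

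**Figure D2:**
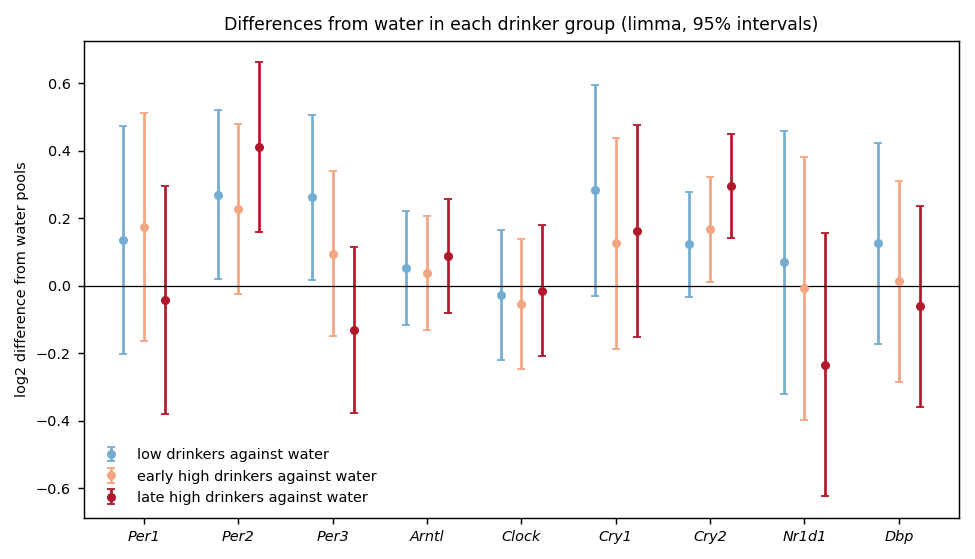
Difference in log2 level from the 3 water pools for each clock gene in low, early high and late high drinkers (3 pools each), with 95% intervals from limma. The intervals of Per2 and Cry2 in late high drinkers, from 0.16 to 0.66 and from 0.14 to 0.45, lie farthest above 0, and those of Arntl, Clock, Nr1d1 and Dbp cross 0 in every group.

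The 3 drinker groups were next set against the same 3 water pools, so these comparisons share their controls. Low drinkers against water gave 2 of 9 members, Per2 at 0.27 ± 0.11 (standard error, unadjusted p = 0.0380) and Per3 at 0.26 ± 0.11 (unadjusted p = 0.0388), beside 9.63% of all probes. Early high drinkers gave 1 of 9, Cry2 at 0.17 ± 0.07 (unadjusted p = 0.0377), beside 4.78%. Late high drinkers gave 2 of 9, Per2 at 0.41 ± 0.11 (unadjusted p = 0.00460) and Cry2 at 0.30 ± 0.07 (unadjusted p = 0.00176), beside 15.7%. With slide as a random block the low and early differences were 0.27 for Per2, 0.26 for Per3 and 0.17 for Cry2. Their calls were lost there, at unadjusted p of 0.0515, 0.0527 and 0.0575. With median scaling each of these differences was 0.12 and none passed. The Per2 call in low drinkers was also lost without any 1 of water pools 1 and 3 and low drinker pools 2 and 3. The differences were then 0.21, 0.28, 0.28 and 0.23. The Per3 difference was 0.15 without low drinker pool 2 (unadjusted p = 0.158) and 0.12 with quantile normalization (unadjusted p = 0.204). Its call was lost without any 1 of 7 arrays, with differences from 0.15 to 0.27 and unadjusted p from 0.0503 to 0.158. The early Cry2 difference was 0.06 with normexp background correction (unadjusted p = 0.391), and its call was lost without any 1 of water pools 1 and 3 and early high drinker pool 1. The late differences correspond to 1.33-fold for Per2 and 1.23-fold for Cry2, and their adjusted p were 0.149 and 0.123. For 3 arrays against 3 an exact permutation test cannot give a p under 0.1. The median of the 9 members was 0.13 in low drinkers, 0.10 in early and -0.01 in late high drinkers, beside 0.05, 0.02 and 0.00 over all probes.

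With slide as a fixed block the late difference was 0.13 for Per2 (unadjusted p = 0.641) and 0.39 for Cry2 (unadjusted p = 0.0615), so that neither passed, and in that fit the late high drinkers are tied to water only through the early high and low drinker pools that share slides with them and with each other. With slide as a random block both passed, at 0.39 (unadjusted p = 0.0151) and 0.30 (unadjusted p = 0.00398). For the mean of a gene's probes the late differences were 0.10 and 0.04, with unadjusted p of 0.577 and 0.777. The order of the Per2 means was water, early high, low and late high drinkers (-0.44, -0.22, -0.17 and -0.03). The SDs between pools were 0.08 in low, 0.19 in early and 0.15 in late. Late against early high drinkers differed by 0.18 for Per2 (unadjusted p = 0.134) and high against low drinkers by 0.05 (unadjusted p = 0.620), so that neither passed. For Cry2 the order was water, low, early high and late high (0.70, 0.83, 0.87 and 1.00), and high against low drinkers differed by 0.11 with an unadjusted p of 0.0998 and late against early by 0.13 with an unadjusted p of 0.0928.

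Per3 was the one member that passed an unadjusted p of 0.05 among the alcohol groups. Its values were -3.10, -2.88 and -2.99 in water, -2.74, -2.50 and -2.94 in low drinkers, -3.01, -2.77 and -2.90 in early high drinkers and -3.11, -3.09 and -3.17 in late high drinkers. The 3 late high drinker arrays lay close together and below all low and early high drinker arrays, and the highest value was that of low drinker pool 2. High drinkers were 0.28 ± 0.09 (standard error) below low drinkers, a fold of 0.824 (unadjusted p = 0.0150, adjusted p = 0.237), the only call among the 9 members, beside 15.1% of all probes. Without low drinker pool 2 the difference was -0.17 with an unadjusted p of 0.0857, and with median scaling it was -0.15 with an unadjusted p of 0.117. In the same comparison 5 of 5 anterior pituitary hormone genes were lower in high drinkers at an unadjusted p under 0.05, with a median difference of -1.42 on the log2 scale, and 3 of these 5 were well above background on all arrays. Their summed level, on the linear scale where the 75th percentile is 1, was 3.25 to 12.4 in water, 6.90 to 9.40 in low drinkers, 0.911 to 3.37 in early and 3.93 to 6.44 in late high drinkers, so that all high drinker arrays lay below all low drinker arrays. The part of pituitary tissue in the Per3 difference was not tested. Late against early high drinkers gave no call among the members, with Per3 nearest at -0.23 (unadjusted p = 0.0664), beside 12.3% of all probes.

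Other probes of the members were mostly far dimmer and did not all follow the brightest one. Over the 12 arrays the brightest Clock probe correlated at 0.51, 0.91 and -0.33 with the other 3 Clock probes, taken from bright to dim, and the 3 Nr1d1 probes correlated at 0.56 to 0.74. The Cry1 pair correlated at 0.06. The dim Cry1 probe, at 10:84594731-84594790 and well above background on 6 of 9 alcohol arrays, was 0.73 higher in late high drinkers than in water (unadjusted p = 0.0129), where the brighter probe at 10:84606495-84606554 differed by 0.16 (unadjusted p = 0.275). A second Nr1d1 probe, at 11:98633332-98633391, was 0.42 lower in late high drinkers than in water (unadjusted p = 0.0346), where the brightest Nr1d1 probe differed by -0.23 (unadjusted p = 0.210).

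The correlations among the members over the 12 arrays were then computed, 36 pairs in all, with permutation p from 100000 resamples. The strongest was between Nr1d1 and Dbp, both direct targets of Clock and Arntl, with Pearson's r of 0.84 (p = 0.00069, adjusted over the 36 pairs p = 0.0248) and Spearman's rho of 0.84 (p = 0.00101, adjusted p = 0.0364). It was the only pair past an adjusted p of 0.05. In 4 pairs the unadjusted p was under 0.05, and 18 coefficients were above 0 and 18 below. Leaving out late high drinker pools 1 and 3, the farthest from the median of Nr1d1, r was 0.71 (permutation p = 0.0150). Leaving out each array in turn gave 0.72 to 0.90.

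Nr1d1 was at -0.91, -0.84 and -1.16 in water, -0.87, -0.89 and -0.94 in low drinkers, -0.68, -1.01 and -1.25 in early high drinkers and -1.47, -0.86 and -1.29 in late high drinkers. Dbp was at 4.66, 4.92 and 4.66 in water, 4.87, 4.88 and 4.87 in low drinkers, 4.93, 4.65 and 4.71 in early high drinkers and 4.42, 4.95 and 4.70 in late high drinkers. Water pool 2, the 3 low drinker pools, early high drinker pool 1 and late high drinker pool 2 were high for Dbp, all at or above 4.87, and the other 6 arrays were at 4.71 or below with no array between. The 5 arrays highest for Nr1d1 were all among these 6, and the remaining one, low drinker pool 3 at -0.94, came just after water pool 1 at -0.91. Both sets held water, early high and late high drinker pools and arrays of all 3 slides, while all low drinker pools were in the high set. Low drinkers were the most uniform, with an SD of 0.005 for Dbp and 0.03 for Nr1d1, and late high drinkers the least, with 0.27 and 0.31. Low drinker pools average 3 mice and high drinker pools 1 or 2, and the part of pool size in these SDs was not tested.

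The relation of Nr1d1 and Dbp was as large within batches, at a higher p. After subtraction of slide means r was 0.87 (exact permutation within slides, p = 0.00702, adjusted p = 0.253), and after subtraction of group means it was 0.84 (exact permutation within groups, p = 0.0301). On slides 1, 2 and 3 alone, with 4 arrays each, r was 0.71, 0.75 and 0.96. Among 26039 other probes well above background on every array, 0.131% were correlated with Dbp at least as strongly in either direction.

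Clock and Dbp ran in opposite directions, with r of -0.74 (p = 0.00549, adjusted p = 0.0988) and rho of -0.70 (p = 0.0138). Of the 26039 other probes, 0.979% were correlated with Dbp at least as strongly in either direction. Without early high drinker pool 1 and late high drinker pool 1, the farthest for Clock, r was -0.52 (permutation p = 0.120), so the relation rests in part on those arrays, and without scaling between arrays it was -0.13. Late high drinker pool 1 had the highest Clock and the lowest Dbp and Nr1d1 values of all arrays, and also the highest Per2 and Arntl values. The same array was the highest for all 6 heat shock genes on the fixed temperature list, with Hspa1a at 1.5 where the other arrays were at 0.84 or below and its near-identical copy Hspa1b at -0.98 where they were at -1.51 or below. The part of this in the clock gene correlations was not tested. Per2 and Nr1d1 were related at -0.64 (permutation p = 0.0246, adjusted p = 0.293), and without water pool 1 and late high drinker pool 1 at -0.48 (p = 0.157). Within slides this r was -0.58 (exact permutation p = 0.0763), with median scaling -0.53 (permutation p = 0.0788) and for the mean of a gene's probes 0.25. Of the 26039 other probes, 5.35% were correlated with Nr1d1 at least as strongly in either direction. Per2 and Cry1 were related at 0.59 (permutation p = 0.0403, adjusted p = 0.293) with rho of 0.78 (permutation p = 0.00368, adjusted p = 0.0662). Without the same 2 arrays r was 0.42 (p = 0.230), within slides 0.50 (exact permutation p = 0.185) and for the mean of a gene's probes 0.14. Without low drinker pool 2, where Cry1 stood apart from the other alcohol arrays, it was 0.91 (permutation p = 0.00019).

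Pairs that would move together or apart in rhythmic tissue gave weaker values. Arntl and Dbp, of opposite phase, had r of -0.34 (permutation p = 0.277), and without low drinker pool 3 and late high drinker pool 1 r was 0.00. Per1 and Per2 had r of 0.23 (permutation p = 0.468) and Per2 and Per3 0.00 (p = 0.999). Arntl and Nr1d1 had r of -0.33 (permutation p = 0.302) and Arntl and Clock 0.32 (p = 0.301). None of these passed, and each moved with single arrays. Per1 and Per2 ranged from -0.03 without water pool 1 to 0.56 without late high drinker pool 1, and Per2 and Per3 from -0.19 to 0.20 without the same arrays. Without late high drinker pool 1 r was 0.12 for Arntl and Dbp, 0.09 for Arntl and Nr1d1 and -0.02 for Arntl and Clock, and without early high drinker pool 1 it was -0.56 for Arntl and Nr1d1 and 0.57 for Arntl and Clock. Arntl and Per3 had r of -0.44 (permutation p = 0.153), from -0.53 to -0.35 with each array left out. Their rho was -0.62 (permutation p = 0.0341, adjusted p = 0.208), and within slides r was -0.58 (exact permutation p = 0.0862). Arntl had r of -0.05 with Per1 and 0.38 with Per2 (permutation p = 0.877 and 0.221). The design holds no array of known hour against which a shift of phase could be read. The hour of collection of each pool is not among the sources, and its part in these correlations was not tested.

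**Figure D3:**
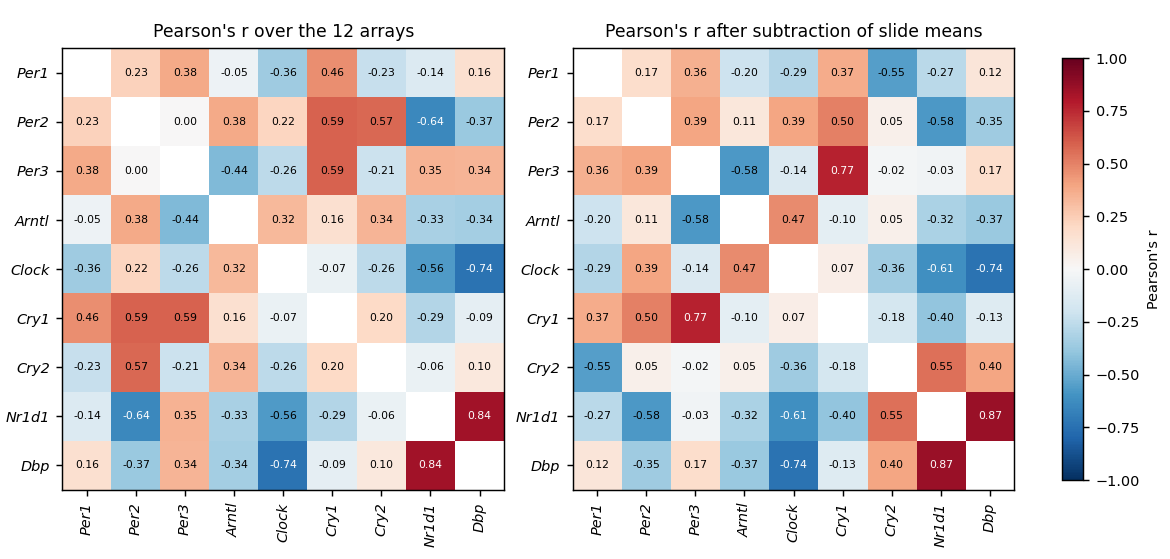
Pearson's r for the 36 pairs of clock genes, over the 12 arrays (left) and after the mean of each slide was subtracted (right), with red for positive and blue for negative values. Nr1d1 with Dbp is at 0.84 and 0.87 and Clock with Dbp at -0.74 in both panels, while Per2 with Cry2 goes from 0.57 to 0.05.

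**Figure D4:**
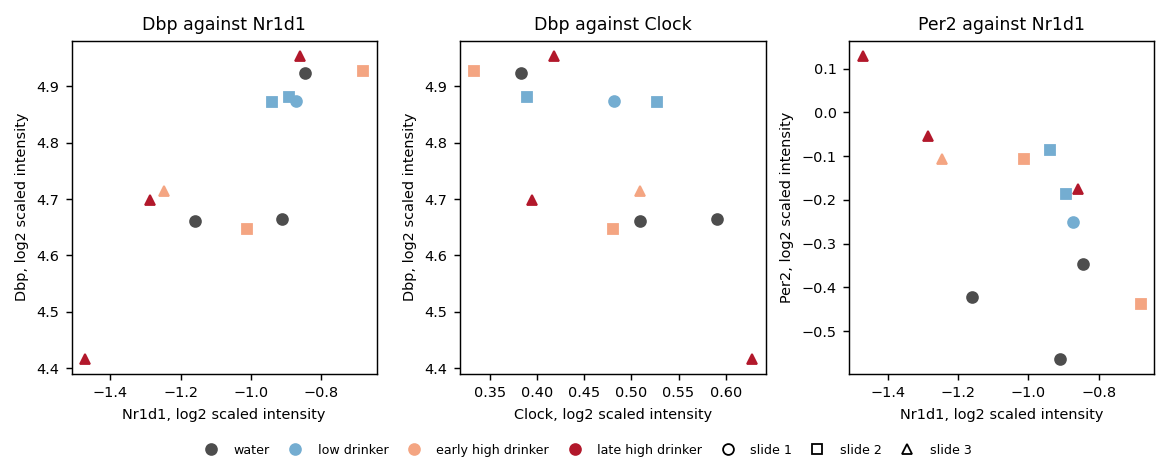
Log2 scaled intensity of Dbp against Nr1d1, of Dbp against Clock and of Per2 against Nr1d1, with 1 point for each of the 12 arrays, colored by group and shaped by slide. Arrays of all 4 groups lie along the same rising line for Nr1d1 and Dbp, and late high drinker pool 1 lies at the end of all 3 patterns.

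Per2 and Cry2, the genes that passed against water, were correlated at 0.57 over the 12 arrays (permutation p = 0.0511) and at 0.05 within slides (exact permutation p = 0.889). Slide means of Per2 were -0.40, -0.20 and -0.05 on slides 1, 2 and 3, and those of Cry2 were 0.74, 0.86 and 0.95. Between the 3 slides lay 56.8% of the variance of Per2 and 53.4% of that of Cry2. Between the 4 labelled groups lay 62.4% and 75.1%, and between alcohol and water 49.1% and 47.8%. A factor with more classes takes a larger share by itself, so these shares do not rank slide against group. For Dbp the shares between slides, groups, and alcohol and water were 13.2%, 18.9% and 0.525%.

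Of 22 other clock genes on a fixed list, all 22 were tested and 20 were well above background on every array. Only Wee1, a cell cycle kinase under direct control of the clock, passed an unadjusted p of 0.05 for alcohol against water. That is 1 of 22, beside 5.53% of all probes. The median of the 22 differences was 0.03, as over all probes. Wee1 was at -4.81, -4.87 and -4.74 in water, at -4.76, -4.48 and -4.50 in low drinkers, at -4.81, -4.44 and -4.62 in early high drinkers and at -4.45, -4.35 and -4.48 in late high drinkers. It was higher by 0.26 ± 0.09 (standard error, unadjusted p = 0.0162), with 7 of 9 alcohol arrays above every water array. Its probe was dimmer than those read for Per3 and Cry1, so that signal over background limits it. Alcohol and slide cannot be told apart for Wee1 either, since all water pools lie on 1 slide. The other 21 genes, among them Nr1d2, the Ror receptors, Bhlhe40, Tef, Hlf and the casein kinases Csnk1d and Csnk1e, did not pass. At that unadjusted p in limma, low drinkers against water gave 1 call among the 22 beside 9.63% of all probes, early high drinkers 0 beside 4.78% and late high drinkers 2 beside 15.7%.

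Glucocorticoids and temperature are signals known to reach the clock, and genes that answer to them were read from fixed lists. Of 9 tested genes induced by glucocorticoids, 1 passed for alcohol against water, beside 5.53% of all probes, Tsc22d3 (Gilz), at 0.34 ± 0.12 (standard error, unadjusted p = 0.0145). It was at 1.75, 1.93 and 1.96 in water, at 2.23, 2.17 and 2.26 in low drinkers, at 1.78, 2.11 and 2.32 in early high drinkers and at 2.37, 2.28 and 2.49 in late high drinkers. As for Per2, early high drinker pool 1 was the alcohol array that lay within the range of water. Fkbp5, another gene strongly induced by glucocorticoids, differed by 0.05 (unadjusted p = 0.486) and Sgk1 by 0.27 (unadjusted p = 0.444). Of 8 genes that respond to temperature, 1 passed, beside the same 5.53%, Rbm3, an RNA-binding protein induced by cold, at 0.32 ± 0.11 (standard error, unadjusted p = 0.0125). Rbm3 was at 2.74, 2.87 and 2.76 in water, at 3.12, 3.00 and 3.05 in low drinkers, at 2.84, 3.13 and 3.04 in early high drinkers and at 3.09, 3.27 and 3.51 in late high drinkers, again with early high drinker pool 1 within the range of water. The medians of these lists were 0.13 and 0.10, beside 0.03 over all probes.

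Over the 12 arrays Per2 had r of 0.89 with Tsc22d3, 0.78 with Wee1 and 0.72 with Rbm3, and within slides 0.81, 0.50 and 0.43. These 3 genes are named because they passed the comparison that Per2 passed, and a shared difference between alcohol and water raises r by itself. With Per2 the other 8 glucocorticoid genes had r from -0.19 for Mt2 to 0.65 for Nfkbia, with Fkbp5 at 0.48 and Sgk1 at 0.38, and the other temperature genes from 0.29 for Dnajb1 to 0.63 for Hspa1a. All these coefficients describe arrays that share slides and groups, and whether glucocorticoids, temperature or slide set them was not tested. Dbp had r of -0.87 with Nfil3 (E4bp4), a repressor that binds the same D-boxes as the Dbp protein, and -0.87 within slides. Nfil3 was singled out after its values were seen and differed by 0.03 between alcohol and water (unadjusted p = 0.717).

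Among 18757 annotated probes well above background on every array, the genes outside the 9 members most like Per2 by Pearson's r over the 12 arrays were Pglyrp1 (0.95), Gpt2 (0.94) and Tenm3 (0.92). Those most like Dbp were Chmp1a (0.95), Rbpjl (0.92) and 2310030G06Rik (0.88), and Nr1d1 stood at rank 23 for Dbp. Those most like Arntl were Nt5m (0.93), Pdrg1 (0.86) and Rad54b (0.85). The other members stood far from Arntl, the nearest being Per2 at rank 2139.

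Promoter sequences from RefSeq (GRCm38.p6, from 250 bases before to 50 after a transcription start) were found for 8 of the 9 members, with 12 starts in all, and Per2 had no entry. The E-box CACGTG, searched on both strands, was in the promoters of Cry1 and Per1 and in 7.15% of all 32851 promoters. The variant CACGTT was in Cry2, Cry1 and Nr1d1 and in 4.68% of all promoters. The D-box, as TTATGTAA or TTACGTAA, was in Per3 alone of the members and in 1.06% of all. TAGGTCA, the element bound by Nr1d1 and the Ror receptors, was in Arntl, after the start, and in 2.61% of all, and the cAMP response element TGACGTCA was in no member and in 1.79% of all. The sequences of Nr1d1 and Dbp, the pair that varied together, and of Cry2, which passed against water, are given 5′ to 3′ over the 250 bases before the start, on 11:98775378-98775627 (minus strand), 7:45704997-45705246 (plus strand) and 2:92434070-92434319 (minus strand). For Per3, the member that differed among drinkers, the 75 bases around its pair of D-boxes are given, on 4:151044806-151044880 (minus strand). Capitals mark the matches to these motifs.
Nr1d1: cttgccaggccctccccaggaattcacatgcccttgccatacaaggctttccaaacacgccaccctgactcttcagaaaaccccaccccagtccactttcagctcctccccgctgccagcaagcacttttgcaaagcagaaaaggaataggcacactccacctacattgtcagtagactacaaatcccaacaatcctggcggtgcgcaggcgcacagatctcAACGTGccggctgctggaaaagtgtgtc
Dbp: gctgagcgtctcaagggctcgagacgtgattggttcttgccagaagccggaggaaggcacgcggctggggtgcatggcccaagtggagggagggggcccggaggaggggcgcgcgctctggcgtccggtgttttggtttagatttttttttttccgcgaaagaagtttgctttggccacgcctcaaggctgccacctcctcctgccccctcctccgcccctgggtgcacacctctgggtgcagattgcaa
Cry2: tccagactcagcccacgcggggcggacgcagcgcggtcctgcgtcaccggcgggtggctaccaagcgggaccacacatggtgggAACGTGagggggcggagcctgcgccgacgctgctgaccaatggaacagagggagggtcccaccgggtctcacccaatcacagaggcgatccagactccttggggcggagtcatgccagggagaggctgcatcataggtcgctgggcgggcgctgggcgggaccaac
Per3: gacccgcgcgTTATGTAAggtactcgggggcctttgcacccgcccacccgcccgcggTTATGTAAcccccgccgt
Nr1d1 and Cry2 each hold 1 E-box variant, read from the other strand as AACGTG, beginning 28 and 166 bases before the start. The Dbp window holds none of the 5 motifs, although its level followed that of Nr1d1 on these arrays. A match or its absence in this window describes the letters alone.

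**Figure D5:**
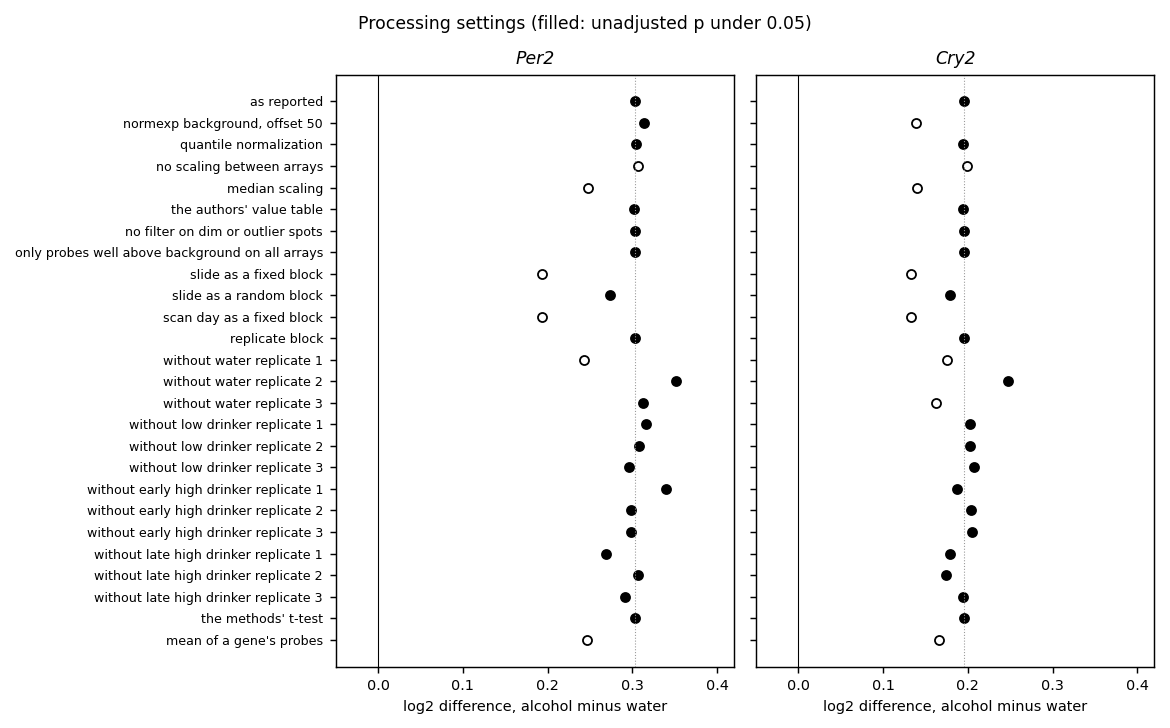
Log2 difference between alcohol and water for Per2 (left) and Cry2 (right) under each processing setting and with each array left out, filled where the unadjusted p was under 0.05. All points lie above 0, from 0.19 to 0.35 for Per2 and from 0.13 to 0.25 for Cry2, and the open points include slide and scan day as fixed blocks and the array set without water pool 1, while slide as a random block is filled.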

How the data were processed

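Hypothalamic RNA of 12 pools was labeled with Cy3 and hybridized to Agilent mouse arrays by the authors, who deposited each array's signal intensity on a linear scale, corrected for background in Feature Extraction, with no scaling between arrays named. The authors' table of intensity per probe was used as an alternative. Here log2 values were centered on each array by its 75th percentile, computed from 43379 non-control spots. Spots flagged as non-uniform outliers or with a signal to noise ratio under 2 were set to missing, replicate spots were averaged, and the 32376 probes measured on 2 or more of the 3 water arrays and 5 or more of the 9 alcohol arrays were kept.

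Comparisons used limma 3.58.1 under R 4.3.3 (lmFit, eBayes, Benjamini-Hochberg adjustment over all probes tested), alcohol against water in a fit of both groups and the other contrasts in a fit of 4 group means. Single values were tested by exact permutation and correlations by 100000 resamples, both 2-sided. Figures were drawn with matplotlib 3.10.9.

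The 9 members and the gene lists were chosen with earlier results of these data known. All 9 members were named, on the probe of highest mean over 12 arrays with their other probes beside it. From the lists of other clock genes, glucocorticoid-induced genes and temperature-dependent genes, those at an unadjusted p under 0.05 for alcohol against water were named, and for likeness the 3 genes of highest Pearson's r with Per2, Dbp and Arntl. Some further genes of the lists and markers were named after their values were seen.

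Markers of hypothalamus, suprachiasmatic nucleus, white matter, blood, anterior pituitary, choroid plexus, thalamus, cortex with striatum, and vessels were summed on each array. The sums of the last 5 lists gave exact permutation p of 0.573, 0.132, 0.791, 0.245 and 0.386 for alcohol against water, and that of the hypothalamic list 0.223. Replicates were pools of separate mice, so p-values measure the spread between pools. The steps were tested on simulated data, where 165 of 200 probes moved by 1 between alcohol and water passed an adjusted p of 0.05, over 29521 probes. No pair of arrays held identical values. Probe coordinates are in mm9, from the array files, and promoters are those of GRCm38.p6, matched by symbol.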

Additional observations from a re-analysis of the deposited data

Results flagged for a closer look

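Cry1 in low drinker pool 2, at -2.67, stood apart from the other 8 alcohol arrays, with a gap to the next of 0.505 of the whole range, above Dixon's 95% critical value for 9 arrays. The second, dim Per2 probe stood apart on the same array, at -2.74, with a gap of 0.550 of the range. These were 2 of 17 probes looked at, and chance alone flags about 1 in 20. The array of low drinker pool 2 was the one with the raised lower quartile of intensity, 63.2, and the part of that in these values was not tested.

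Among the alcohol groups 3 of 17 member probes passed an unadjusted p of 0.05 for high against low drinkers, beside 15.1% of all probes, and 1 of 17 for late against early high drinkers, beside 12.3%. Slide and group are largely confounded in both comparisons. High drinkers were below low drinkers for Per3 (-0.28, unadjusted p = 0.0150 in limma), for the second Per2 probe (-0.61, unadjusted p = 0.0484) and for the second Nr1d1 probe (-0.38, unadjusted p = 0.0303). Late high drinkers were above early high drinkers for the dim Cry1 probe (0.65, unadjusted p = 0.0221). None had an adjusted p under 0.05, and the lowest of them was 0.237.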

How the results depend on the processing

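Counts are of the 9 members at an unadjusted p under 0.05, or of the 36 pairs at an adjusted p under 0.05, and they are small, so that 1 gene can move them. Alcohol against water gave 2 members, and 1 with normexp background correction (offset 50), 0 without scaling between arrays, 0 with median scaling, 0 with slide or scan day as a fixed block and 0 for the mean of a gene's probes. Leaving out each array in turn gave 0 to 2, with 0 without water pool 1 and 1 without water pool 3. Low drinkers against water gave 2, and 1 with quantile normalization, 0 without scaling, with median scaling, with slide as a fixed or random block or with scan day, and 0 to 3 with an array left out, with 0 without water pool 1, water pool 3 or low drinker pool 2. Early high drinkers against water gave 1, and 0 without scaling, with median scaling, with slide as a fixed or random block, with scan day and for the mean of probes, and 0 to 1 with an array left out, with 0 without water pool 1 or 3. Late high drinkers against water gave 2, and 0 with slide as a fixed block, 1 with scan day, 1 for the mean of probes and 2 to 3 with an array left out. The member counted for the mean of probes was neither Per2 nor Cry2. High against low drinkers gave 1, and 0 with quantile normalization or slide as a fixed block, 2 for the mean of probes and 0 to 2 with an array left out, with 0 without low drinker pool 2 and 2 without late high drinker pool 3. Per3, the member called there, was lost also without scaling and with median scaling, at unadjusted p of 0.216 and 0.117. The same count can therefore stand for different members. Late against early high drinkers gave 0, and 2 with normexp or without scaling, 1 for the mean of probes and 0 to 2 with an array left out, with 2 without early high drinker pool 1 or late high drinker pool 3.

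Of the 36 pairs 1 passed, and 2 with quantile normalization, 5 without scaling, 2 with median scaling, 0 for the mean of probes, 0 with slide or group means subtracted, 0 without the 2 arrays farthest from the median of the first gene and 0 to 2 with an array left out, with 0 without any 1 of water pools 2 and 3, low drinker pool 1, early high drinker pool 1 and late high drinker pools 1 and 2. The r of Nr1d1 and Dbp lay between 0.677 and 0.899 under every setting and every array left out, each with a permutation p under 0.05. The r of Per2 and Nr1d1 changed sign to 0.246 for the mean of probes, of which 1 of 2 Per2 probes and 2 of 3 Nr1d1 probes are dim. No member's difference changed sign past the threshold in any of 1305 recomputations. The threshold was lost in 57 of them and gained in 24. Most of the 1305 were of differences that had not passed and so could not lose it, and the few that had passed lost it often. Per3 in low drinkers against water was past it under 6 of 12 settings and with 5 of 12 arrays left out. Per2 was past it under 8 of 13 settings for alcohol against water and Cry2 under 7 of 13.

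Median scaling moved the median of all probes by -0.15 for low drinkers against water and by 0.14 for high against low drinkers. No scaling moved it by 0.13 for late high drinkers against water, 0.13 for high against low and 0.15 for late against early high drinkers. The methods' t-test for alcohol against water put 1688 probes at p under 0.05 and 0 after Benjamini-Hochberg adjustment, beside 1789 and 0 in limma, and called the same count of 2 members.

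Replicate numbers did not pair the samples. Arrays of the same number had correlations of their deviations from group means between -0.09 and 0.18, and 4 of 12 arrays were closest to their own number. With the replicate block, alcohol against water still gave 2 members, low drinkers against water 1, late against early high drinkers 1 and the correlations 0 pairs. Over all probes the block took adjusted calls from 126 to 7 for low drinkers against water and from 95 to 0 for high against low drinkers. Signal over background limits Per3 and Cry1, which were read on probes about 3 log2 units below the 75th percentile, and the second probes of Per2, Cry1 and Cry2. It limits Wee1, read on a still dimmer probe, as well.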
